A study of Mus musculus with 6 samples.

Results

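The 10 genes followed here encode the nuclear lamina and its membrane partners, and were read in mature thymic natural killer T (NKT) cells: the lamin genes Lmna, Lmnb1 and Lmnb2, the inner nuclear membrane protein genes Emd, Lbr and Tmpo, and the SUN and nesprin genes Sun1, Sun2, Syne1 and Syne2. They are 10 of the 19057 genes that have a probe with 1 gene symbol on the array. All their probes, 35 of 34885 such probes, were taken from the platform annotation. Probes with a detection p-value below 0.05 on 3 or more of the 6 arrays were described further, which kept 22 probes of all 10 genes and left 13 as undetected. The probes were selected on their detection p-values over all 6 arrays, so that a probe could enter through 1 group alone, whereas the genes were chosen by the difference of Lmna in these samples, which was already known.

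NKT cells carry a semi-invariant T cell receptor that binds lipid antigens on CD1d. The cells were thymic, bore CD44 and NK1.1, and came from C57BL/6 mice of 2 genotypes: Captain Morgan, a strain deficient in DOCK8, and wild type. The sample titles call the first group DOCK8 knockout, and the labels do not describe the allele. DOCK8 turns on the GTPase CDC42 and so shapes cortical actin in moving lymphocytes. Each genotype had 3 biological replicates on 1 Illumina array each, and the labels give no age and do not say how many animals went into a replicate. The p-values therefore rest on the spread between these samples only. No agent was given in either group, as far as the labels say.

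Lamins are intermediate filament proteins that form a meshwork under the inner nuclear membrane. Lmna encodes lamins A and C by alternative splicing, and Lmnb1 and Lmnb2 encode the B-type lamins. B-type lamins are present in nearly all cells, whereas A-type lamins are scarce in resting lymphocytes and abundant in stiff tissues and in stromal cells. Emerin (Emd), the LAP2 proteins (Tmpo) and the lamin B receptor (Lbr) hold chromatin and lamina at the membrane, and SUN proteins pair with nesprins across the envelope to couple the lamina to the cytoskeleton.

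The arrays had a median intensity between 183 and 235, and 36.4% to 40.7% of their 45281 probes were detected. With 6 arrays, precision is limited by their number. Transcripts of the gated cell type were present: all 11 NKT and T cell identity genes with a named probe, among them Cd3e, Klrb1c (NK1.1), Cd44 and Zbtb16, were detected on all 6 arrays, and 0 of them passed the test between genotypes (limma; 0 also at an unadjusted p under 0.05). The smallest p belonged to Cd247, the CD3 zeta chain gene, at -0.41 ± 0.30 (SE, adjusted p = 0.70), and to the transcription factor gene Gata3, at 0.14 ± 0.13 (0.77). Dock8 itself did not separate the groups. Its brightest probe read 9.52, 9.42 and 9.46 on the DOCK8-deficient arrays and 9.45, 9.29 and 9.69 on the wild type arrays, so the grouping rests on the labels. Wild type replicate 1 stood apart. On 6 probes of 4 genes (Erdr1, Ctse, Ptpn7 and Rdm1) it lay more than 3 log2 units from every other array, and 0 probes set any other array apart in this way. The member counts, the brightest Lmna probe and the calls in the gene lists are therefore also given without it.

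The region upstream of Lmna is shown because this gene carries the difference described next. RefSeq lists 2 start sites on the minus strand of chromosome 3 (build GRCm38.p6), and the 250 bases before each are printed 5′ to 3′ in the direction of the gene. Both strands were searched for 4 motifs, and capitals mark the matches, which do not overlap. The GC box was searched as GGGCGG. The CCAAT box was searched by the letters of its name. The AP-1 element was searched as TGACTCA. The nuclear receptor half-site was searched as AGGTCA. The array cannot tell from which start site the Lmna RNA came.
Lmna upstream window 1, chr3:88503353-88503602: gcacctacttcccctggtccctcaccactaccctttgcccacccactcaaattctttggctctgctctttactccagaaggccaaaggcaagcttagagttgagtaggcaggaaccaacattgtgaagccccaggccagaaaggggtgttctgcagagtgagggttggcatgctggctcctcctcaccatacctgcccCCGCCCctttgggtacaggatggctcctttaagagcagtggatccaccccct
Lmna upstream window 2, chr3:88493313-88493562: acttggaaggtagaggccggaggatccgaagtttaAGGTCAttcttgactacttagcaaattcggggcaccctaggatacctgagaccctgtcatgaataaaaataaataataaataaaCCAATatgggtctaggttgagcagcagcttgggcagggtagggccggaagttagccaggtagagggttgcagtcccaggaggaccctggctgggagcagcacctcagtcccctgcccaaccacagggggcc
The first window holds 1 GC box and none of the other 3 motifs, and 32.7% of the 32817 upstream windows of this length in the RefSeq table hold a GC box. The second holds 1 CCAAT box and 1 half-site, which occur in 33.8% and 14.0% of all windows. An AP-1 element is in neither, and is in 4.46% of all windows. These matches describe the letters of the windows.

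Lmna was higher in DOCK8-deficient than in wild type NKT cells on every one of its 5 detected probes. On its brightest probe (probe 1, ILMN_1255510) the normalized log2 expression was 8.32, 8.57 and 9.01 in the DOCK8-deficient replicates 1 to 3 and 6.24, 6.48 and 6.12 in the wild type replicates 1 to 3. All 3 DOCK8-deficient values lay above all 3 wild type values. The group means were 8.63 ± 0.35 and 6.28 ± 0.18 (SD, n = 3 each), a log2 difference of 2.36 ± 0.20 (SE) with a 95% interval of 1.89 to 2.82, or 5.12-fold. In limma, the adjusted p over all 14559 detected named probes was 0.011. Among the 11924 of these probes that were detected on all 6 arrays, this difference was the largest upward one, and that of Lmna probe 2 was the second; without background correction they ranked 3 and 25, and in the log2 values deposited by the authors they ranked 1 and 7.

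**Figure D1:**
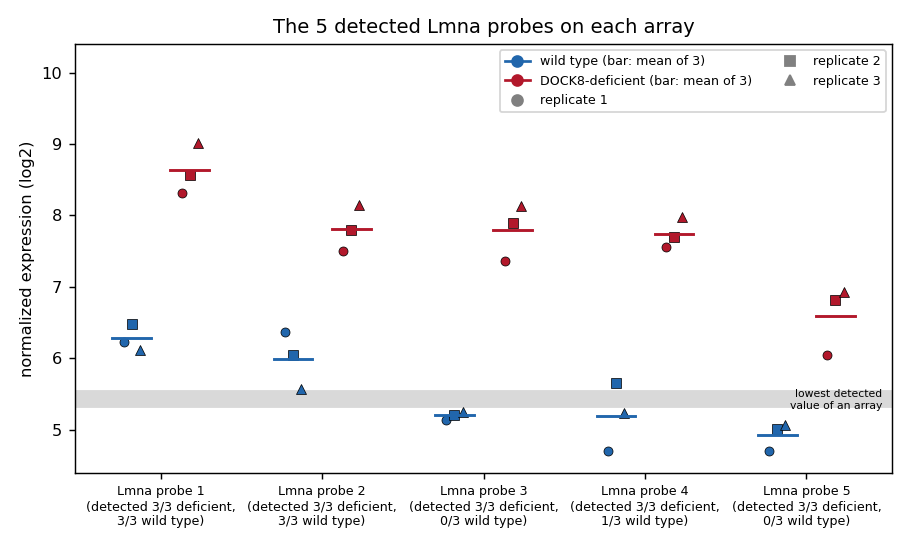
Normalized log2 expression (vertical axis) of the 5 detected Lmna probes on each of the 6 arrays, with wild type in blue, DOCK8-deficient in red, a bar at each group mean and the replicate given by the symbol. On every probe the 3 DOCK8-deficient arrays lie above the 3 wild type arrays, and the grey band spans the lowest detected values of the arrays (log2 5.32 to 5.54).

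The size of the Lmna difference depended on how background was handled. Before any correction probe 1 read 572, 408 and 757 on the DOCK8-deficient arrays and 250, 292 and 292 on the wild type arrays; the median of all probes was 216, 183 and 229 on the former and 212, 231 and 235 on the latter. Without background correction the difference was 2.18-fold, and in the deposited log2 table it was 3.60-fold. The direction was the same, and limma's adjusted p was under the threshold in both (0.0019 and 4.9e-04).

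The 4 other detected Lmna probes read the same way. Probe 2 read 7.50, 7.79 and 8.15 in DOCK8-deficient replicates against 6.37, 6.05 and 5.56 in wild type replicates, 3.53-fold higher (log2 difference 1.82 ± 0.24 SE, limma adjusted p = 0.046). Its call was lost in all 6 fits that left 1 array out (0.065 to 0.175), when dim probes were kept (0.061) and with unnamed probes included (0.061). Probe 3 read 7.36, 7.89 and 8.13 against 5.14, 5.21 and 5.25. It was detected on no wild type array (limma adjusted p = 0.0069), so its difference is given as a bound, at least 5.27-fold on the background-corrected scale. The bound sets the DOCK8-deficient mean against the mean of the lowest detected values of the 3 wild type arrays. It holds for that scale only: the fitted difference was 1.84-fold without background correction and 3.25-fold in the deposited log2 table. Probe 4 read 7.56, 7.70 and 7.98 against 4.70, 5.65 and 5.24, with 1 of the 3 wild type arrays detected and a fitted log2 difference of 2.55 ± 0.25 (adjusted p = 0.020). Its wild type mean of 5.20 lies under the lowest detected values of those arrays (5.33 to 5.45), so the fitted size is uncertain. Probe 5, the dimmest, read 6.05, 6.81 and 6.93 against 4.71, 5.01 and 5.06. It was detected on no wild type array and did not pass (limma adjusted p = 0.056). On the background-corrected scale it was at least 2.30-fold higher. The fitted difference of probe 5 was 1.36-fold without background correction and 1.98-fold in the deposited log2 table. Probes 3 and 5 entered the test only through the DOCK8-deficient arrays, where they are high, so they had to differ and add no support to the others. Probe 4, with 1 wild type array detected, also reached the required 3 arrays only with the DOCK8-deficient ones, and likewise adds no support. The 2 groups did not overlap on any of the 5 probes, and 7.97% of all probes tested were without overlap in this direction.

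In normalized values the probes also kept the same order among the DOCK8-deficient arrays, with replicate 3 highest and replicate 1 lowest on all 5. In intensities before correction replicate 3 was again highest, but replicate 2, the array with the lowest median (183), was lowest on all 5. The probes measure the same RNA on the same arrays and are not independent replicates of the difference. The platform annotation lists 4 of them under 1 RefSeq transcript record and probe 4 under another, and the positions of the probes are not given, so lamin A and lamin C transcripts were not told apart. The sixth Lmna probe, annotated to the same record as probe 4, was detected on 0 of the 6 arrays, with intensities of 179 to 234.

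Of the 22 member probes, 4 were called higher and 0 lower, and all 4 belong to Lmna. They include probes 3 and 4, which met the detection rule only with the DOCK8-deficient arrays. Over all probes tested, 31 of 14559 were called (0.213%), 19 higher (0.131%) and 12 lower (0.0824%); with the arrays scaled to a common median the split was 29 higher and 33 lower. Because Lmna was chosen with its rise known, that count is a description. The Lmna call was lost when certain single arrays were left out. The brightest probe differed by 2.35 (adjusted p = 0.072) without wild type replicate 1, by 2.28 (0.095) without wild type replicate 3 and by 2.40 (0.057) without DOCK8-deficient replicate 2, and it passed without each of the other 3 arrays (0.015 to 0.034). The number of member probes called in limma was 0 (5 at an unadjusted p under 0.05) without wild type replicate 1 or 3, 1 without DOCK8-deficient replicate 2, 2 without DOCK8-deficient replicate 3, 3 without wild type replicate 2 and 4 without DOCK8-deficient replicate 1. Over all probes the count was 2 without wild type replicate 1, 1 without wild type replicate 3, 5 without wild type replicate 2, and 17, 5 and 4 without DOCK8-deficient replicates 1, 2 and 3. The 5 Lmna probes were higher in every one of these fits.

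**Figure D2:**
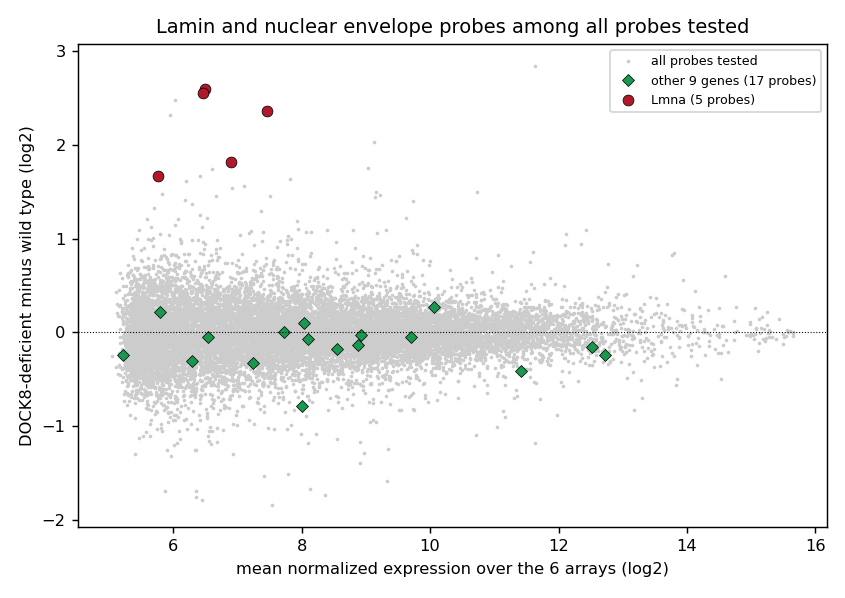
Log2 difference between DOCK8-deficient and wild type cells (vertical axis) against mean normalized log2 expression over the 6 arrays (horizontal axis) for all 14559 probes tested, in grey. The 5 Lmna probes (red circles) are drawn at their fitted values of 1.67 to 2.59, which for probes 3 and 5 stand against a wild type level that was not detected, and the 17 probes of the other 9 genes (green diamonds) lie between -0.78 and 0.27.

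The B-type lamins did not pass the test. Lmnb1, the main B-type lamin, which is bound up with cell growth, read 10.31, 9.90 and 10.38 on its brighter probe in DOCK8-deficient cells and 9.34, 10.22 and 10.21 in wild type cells. Wild type replicate 1 was the lowest array and the other 5 overlapped. The log2 difference was 0.27 with a 95% interval of -0.34 to 0.88 (limma adjusted p = 0.79), and it was -0.02 without wild type replicate 1. Its dim second probe differed by 0.22 (-0.39 to 0.82). Lmnb2 read 8.02, 7.99 and 8.18 against 8.35, 8.41 and 7.64, with overlapping groups and a difference of -0.07 (-0.57 to 0.44); its second probe was undetected on every array.

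Within arrays, the brightest Lmna probe shifted by 2.08 log2 units relative to Lmnb1 and by 2.42 relative to Lmnb2 between wild type and DOCK8-deficient cells. Without background correction the shifts were 0.90 and 1.18, in the deposited log2 values 1.58 and 1.95, and without wild type replicate 1 they were 2.37 and 2.30. They are a description with no test, since the genes were chosen with the Lmna difference known.

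**Figure D3:**
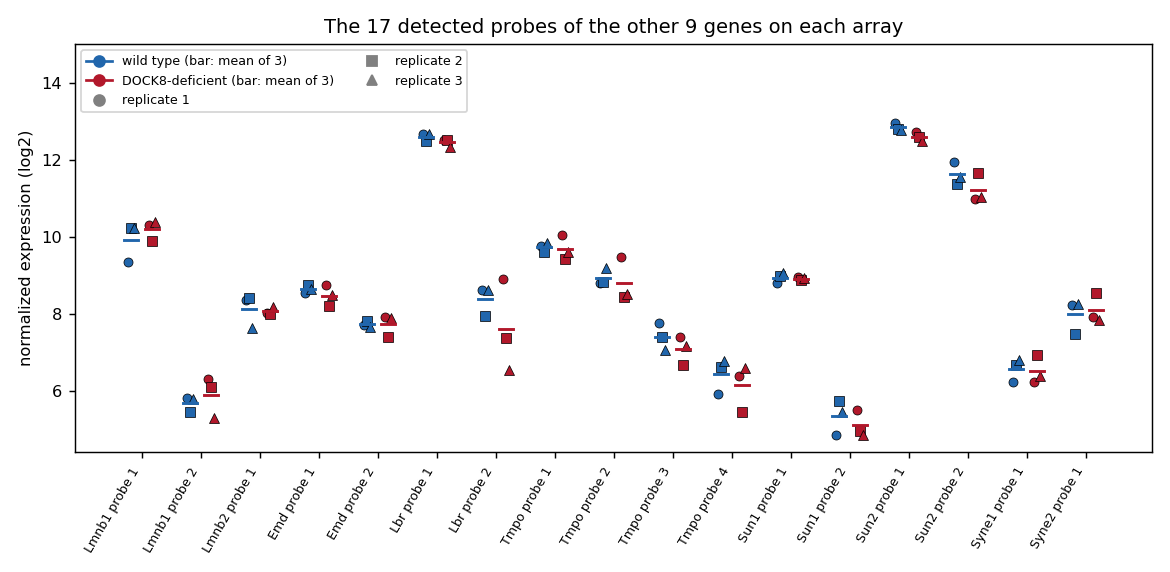
Normalized log2 expression (vertical axis) on each array for the 17 detected probes of the other 9 genes, with wild type in blue, DOCK8-deficient in red, a bar at each group mean and the replicate given by the symbol. The groups overlap on 16 of the 17 probes, and on Sun2 probe 1 the DOCK8-deficient arrays lie below the wild type arrays.

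Among the inner membrane proteins, none passed. Emd, whose product emerin binds lamin A and the chromatin protein BAF, read 8.74, 8.19 and 8.47 on its brighter probe against 8.54, 8.75 and 8.64 in wild type cells. Its 2 probes differed by -0.18 (95% interval -0.57 to 0.22) and 0.01 (-0.39 to 0.40). Wild type and DOCK8-deficient values overlapped on both.

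Tmpo, which encodes the LAP2 proteins, one of them a nucleoplasmic partner of lamin A, had 4 detected probes. The brightest read 10.04, 9.43 and 9.59 against 9.77, 9.61 and 9.83, a difference of -0.05 (-0.47 to 0.37). The others differed by -0.13, -0.32 and -0.30, with limma adjusted p from 0.71 to 0.92. All 4 group pairs overlapped, and DOCK8-deficient replicate 2 was the lowest DOCK8-deficient array on each.

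Lbr, which binds B-type lamins and heterochromatin and is also a sterol reductase, read 12.51, 12.50 and 12.34 on its brighter probe against 12.67, 12.47 and 12.65. That difference was -0.15 (-0.46 to 0.16). The dimmer Lbr probe scattered widely among DOCK8-deficient arrays, at 8.91, 7.36 and 6.55, against 8.61, 7.94 and 8.61 in wild type arrays. It differed by -0.78 with an interval of -2.01 to 0.44, and by -1.43 without DOCK8-deficient replicate 1 and -0.25 without DOCK8-deficient replicate 3. The 2 Lbr probes thus disagreed in spread, and neither passed in any fit that left out 1 array.

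The SUN proteins span the inner membrane and bind lamins on the nuclear side. Sun2 read 12.72, 12.58 and 12.49 on its brighter probe against 12.95, 12.80 and 12.77, so every DOCK8-deficient value lay below every wild type value. The difference was -0.24 ± 0.13 (SE), with an interval of -0.55 to 0.07 and a limma adjusted p of 0.60. Of all probes tested, 7.98% were without overlap in this direction, and Sun2 probe 1 was 1 of 17 among the probes of the other 9 genes. The second Sun2 probe differed by -0.41 (-0.94 to 0.12) with overlapping groups. Sun1 read 8.94, 8.86 and 8.92 against 8.79, 8.97 and 9.06, a difference of -0.03 (-0.34 to 0.28).

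Nesprins reach from the outer membrane to actin and microtubules. They span many exons and several isoforms, and most of their probes gave no signal: 6 of 7 Syne1 probes and 5 of 6 Syne2 probes were undetected. The remaining Syne1 probe read 6.24, 6.92 and 6.38 against 6.23, 6.68 and 6.79 (difference -0.05, interval -0.57 to 0.47). The remaining Syne2 probe read 7.90, 8.53 and 7.84 against 8.23, 7.47 and 8.26 (0.10, interval -0.52 to 0.72). The groups overlapped for both genes. Of the 13 undetected probes, 11 were detected on no array. At the edge of the detection rule, Sun1 probe 2 was kept with 1 DOCK8-deficient and 2 wild type arrays, and a Syne2 probe was left out with 2 DOCK8-deficient arrays, where it read 5.82 and 5.68, and 0 wild type arrays.

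**Figure D4:**
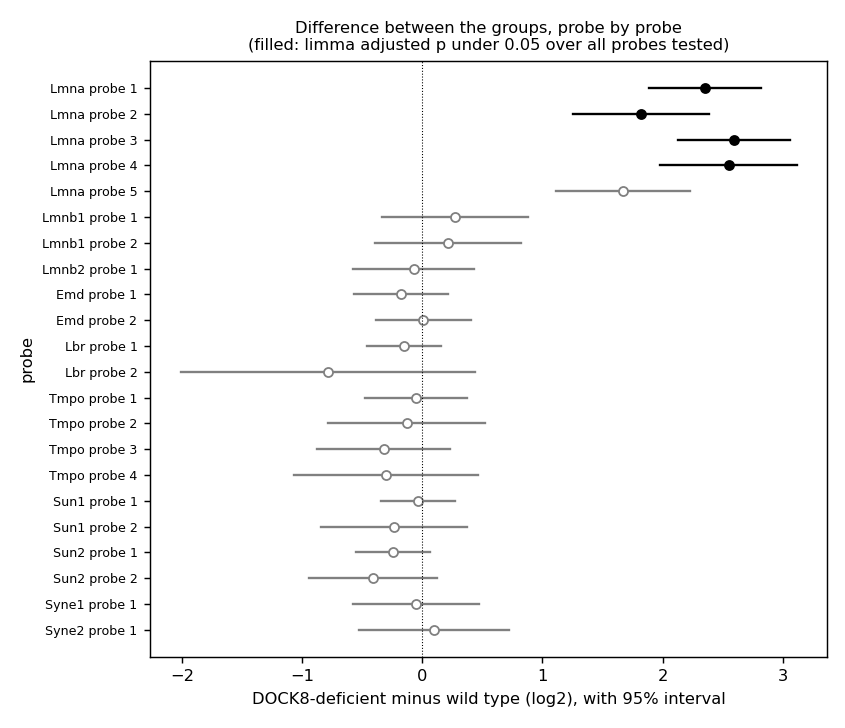
Log2 difference, DOCK8-deficient minus wild type (horizontal axis), with its 95% interval for each of the 22 detected probes (vertical axis). Filled points have a limma adjusted p under 0.05 over all probes tested; they are the 4 brightest Lmna probes, and the intervals of all 17 probes outside Lmna span 0.

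Taken as a group, the 17 detected probes outside Lmna had 0 calls in limma, and 0 were at an unadjusted p under 0.05, against 10.1% of all probes tested. Of these probes 4 read higher and 13 lower, with a median of -0.13 against -0.01 over all probes. Their adjusted p ran from 0.60 to 0.99. Across the 9 settings and the 6 fits without 1 array that gave values for them, none was called. The test does not show that these genes were equal between genotypes: the intervals reach from -2.01 to 0.88.

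Other genes of the nuclear envelope were read from a list of LINC and lamina partners, 15 of whose 23 genes with a named probe were tested, 1 probe a gene. None was called, and 9 were higher and 6 lower, with a median of 0.08 (0.265% of 9060 genes were called by their brightest probe, and the median over genes was 0.00). The smallest p belonged to Nrm, which encodes the inner membrane protein nurim, at 10.09, 10.28 and 10.67 against 10.01, 9.97 and 9.64 (difference 0.47 ± 0.19 SE, limma adjusted p = 0.47). Plec, which encodes the cytoskeletal linker plectin, differed by 0.36 ± 0.14 (adjusted p = 0.47). At an unadjusted p under 0.05 there were 2 of the 15, both higher, and 1 without wild type replicate 1. Of all genes, 10.2% were, in either direction, and 7.22% without wild type replicate 1.

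Genes tied to prelamin A and its processing were all measured. These 7 genes, which include the protease gene Zmpste24, the methyltransferase gene Icmt and the farnesyltransferase genes Fnta and Fntb, had 0 calls, 0 at an unadjusted p under 0.05, and a median of 0.09. Narf, which encodes a prelamin A binding protein, differed by 0.27 and Fntb by 0.17. Nucleoporin genes had 24 tested members, 0 calls, 12 higher and 12 lower. Nup50 differed by 0.51 ± 0.17 (limma adjusted p = 0.36) and Nup43 by 0.29. Nup50 was the 1 of 24 at an unadjusted p under 0.05, against 10.2% of all genes.

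Lamins belong to the intermediate filament family, of which 4 other members were tested and 0 called (0 at an unadjusted p under 0.05). Of the 4, 1 read higher and 3 lower. Vim, the vimentin gene, read 11.45, 11.93 and 11.53 against 11.24, 11.33 and 11.27 (difference 0.35 ± 0.16 SE, limma adjusted p = 0.51). Synm differed by -0.26. The groups did not overlap for either gene, as on 7.97% of all probes tested upward and 7.98% downward. Of the 14 family members with a named probe, 8 were undetected on all arrays, among them the epithelial keratin genes Krt5, Krt14, Krt18 and Krt19. The actin, MRTF and SRF genes, a transcriptional axis that senses actin and the lamina, had 11 tested members, 0 calls and a median of 0.22. Of the 11, 8 read higher and 3 lower, with a range of -0.30 to 0.58. Tagln2, which encodes the actin binding protein transgelin-2, read 12.22, 12.27 and 12.11 against 11.55, 11.78 and 11.70 (0.52 ± 0.13, limma adjusted p = 0.22). The vinculin gene Vcl differed by 0.58 ± 0.22 (limma adjusted p = 0.42). These were the 2 of 11 at an unadjusted p under 0.05, and without wild type replicate 1 there was 1. The shares of all genes were 10.2% and 7.22%. Retinoid receptor genes had 3 tested members and 0 calls, with Rarg at 0.17 and Rxrb at -0.16, and 0 were at an unadjusted p under 0.05.

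Genes of cell division were read as well. Of 17 tested, 0 were called and 16 read higher, with a median of 0.37, and 7 were at an unadjusted p under 0.05 (10.2% of all genes were, in either direction, and 49.0% of all genes read higher). Wild type replicate 1 was the lowest of the 6 arrays for 13 of the 17 genes, and for 15.7% of all genes. Without it 16 of 17 still read higher, with a median of 0.30, 0 were called in limma and 4 were at an unadjusted p under 0.05 (7.22% of all genes). Stmn1 differed by 0.85 ± 0.18 and Tk1 by 0.91 ± 0.20 (limma adjusted p = 0.15 and 0.16). The summed normalized signal of all 17 genes was 9344 to 10933 on DOCK8-deficient arrays and 7997 to 9265 on wild type arrays. Lmnb1 and Tmpo are known to follow cell growth, and the part of dividing cells in their values, or in those of Lmna, was not tested.

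Markers of other cells were read because A-type lamins are abundant in stroma, and myeloid and dendritic markers were read beside the stromal ones. In bulk RNA, more cells of a type and more RNA per cell cannot be told apart. Of the 16 stromal, endothelial and epithelial markers, 9 were undetected on all arrays, among them Col1a1, Col3a1, Cdh5 and Epcam. The 4 tested had 0 calls (0 at an unadjusted p under 0.05) and a summed signal of 308 to 350 against 273 to 314, with Ccl25 at 0.32 and Col1a2 at 0.27. Of the 13 myeloid and dendritic markers with a named probe, 8 were tested and 0 called, and Cd14, Itgam and Flt3 were undetected on all arrays. At an unadjusted p under 0.05 there were 2 of the 8, both higher, against 10.2% of all genes in either direction. Fcgr3 differed by 0.84 ± 0.20 (adjusted p = 0.18) and Mpeg1 by 0.76 ± 0.23 (0.32). Of the 8, 5 read higher and 3 lower, with a median of 0.43 and a range of -1.29 to 0.84. The summed myeloid signal was 5950 to 7663 against 5898 to 6257, which overlaps. Without wild type replicate 1 the median was 0.29 and limma called 0 (2 at an unadjusted p under 0.05, against 7.22% of all genes). Their part in the Lmna result was not tested.

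The B cell markers had 3 tested members and 0 calls (0 at an unadjusted p under 0.05), with Cd79b at -0.12 and Ebf1 at -0.02, and Ms4a1 and Pax5 undetected. The erythroid markers had 2, with Hba-a1 at 0.60 and Epor at 0.14, and 0 calls (0 at an unadjusted p under 0.05). Of 5 tested markers of double-positive thymocytes, the precursor stage, all 5 read lower. Among these, 2 were at an unadjusted p under 0.05, against 10.2% of all genes in either direction. Dntt, the terminal transferase gene, was called (limma adjusted p = 0.044) but was detected on no DOCK8-deficient array, so it entered the test only through the wild type arrays and had to differ; without wild type replicate 1 its adjusted p was 0.17, and limma then called 0 genes of any list described here (0 to 4 per list at an unadjusted p under 0.05). The summed signal of that list was 1740 to 2064 against 2068 to 2594, ranges that nearly touch, and its part in the Lmna result was likewise not tested.

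The genes whose pattern over the 6 arrays was most like that of Lmna were found by the root mean square distance of centred log2 values from Lmna probe 1. The nearest were Hspa1b (distance 0.14) and Hspa1a (0.27), stress-inducible HSP70 chaperone genes whose near-identical copies the array may not separate. Hspa1b read 6.99, 6.96 and 7.39 in DOCK8-deficient cells and 4.91, 4.80 and 4.67 in wild type cells, where it was detected on no array. Next came Mapk11, which encodes the kinase p38 beta (0.45, log2 difference 1.54 ± 0.27), the NK cell receptor gene Klri2 (0.48, 2.82-fold) and Serp2 (0.48, 1.56 ± 0.34). Of these 5 genes, limma called Hspa1b and Hspa1a (adjusted p = 0.005 and 0.002) and did not call the others (0.054 to 0.156); both were detected on no wild type array and so entered only through the group where they are high. Without wild type replicate 1 their adjusted p was 0.039 and 0.021, and that of the other 3 was 0.23 to 0.48. For comparison, the other 4 detected Lmna probes lay at distances of 0.19 to 0.40. A small distance here says mostly that a gene differed by about as much between the genotypes, and it was given no test.

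**Figure D5:**
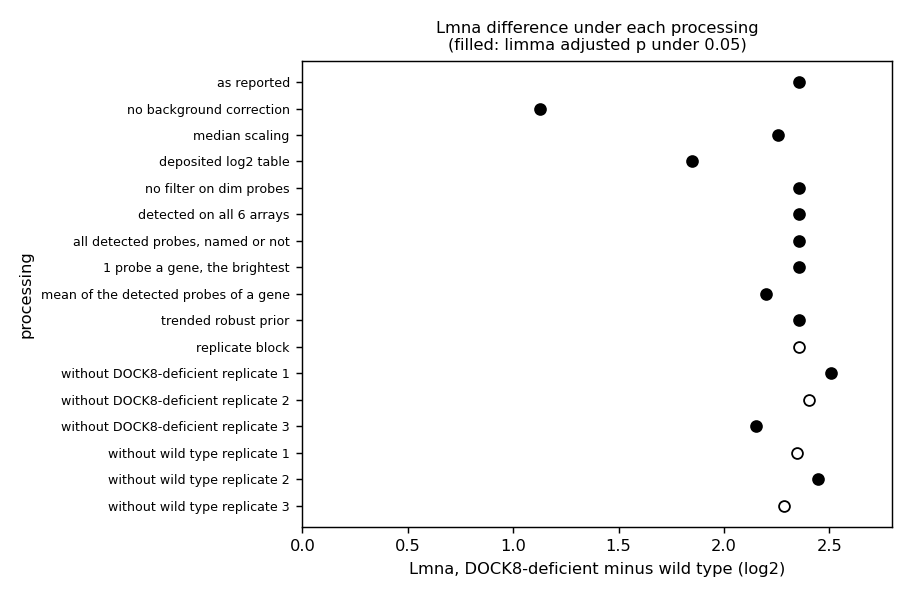
Log2 difference of Lmna, DOCK8-deficient minus wild type (horizontal axis), under each processing of the data and with each array left out (vertical axis). Points show the brightest Lmna probe, except the point for the mean of the detected probes of a gene. Filled points have a limma adjusted p under 0.05. The values run from 1.13 without background correction to 2.51 without DOCK8-deficient replicate 1, and 13 of the 17 fits, the reported one included, passed.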

How the data were processed

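Per the labels' protocols, total RNA was labelled as biotinylated cRNA for Illumina arrays. The deposited table, per the file headers, gives an intensity and a detection p-value for each of 45281 probes on each array. The deposited series table holds log2 values that rank probes as the intensities do (array medians 6.14 to 6.22); its normalization by the authors is not stated in the labels or headers.

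Intensities were background corrected and quantile normalized with neqc of limma 3.58.1 (R 4.3.3; offset 16, negative controls inferred from detection p-values). Detected probes with 1 gene symbol (14559) were fitted one by one with lmFit and eBayes, DOCK8-deficient minus wild type, 2-sided, with Benjamini-Hochberg adjustment over all of them and a threshold of 0.05. The fit was tested on simulated data. Probes are numbered by brightness within a gene. Symbols come from the platform annotation, and 34807 of 34885 named probes matched RefSeq (GRCm38.p6) by gene ID. Upstream sequences are RefSeq's.

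The text names every member, Dock8, the 5 genes nearest to Lmna, and in each context list up to 4 called genes or else the 2 of smallest p. Other genes listed as detected or undetected, and those that set wild type replicate 1 apart, were picked after their values were seen. The members and lists were chosen with earlier results of these data known. The alternatives tried were background correction, scaling, the deposited log2 values, the probe filter, gene-level summaries, the prior, the replicate number as a block and leaving out each array. The context lists without wild type replicate 1, and the lamin shifts under other settings, were added after seeing the data.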

Additional observations from a re-analysis of the deposited data

How the results depend on the processing

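Lmna was higher under every alternative run. Its brightest probe kept its call in all but 1 of the settings that used all arrays and fitted this probe. It also did so in 3 of the 6 fits that left 1 array out, where the difference ran from 2.15 to 2.51. In a further setting the mean of the detected Lmna probes took its place, and passed (2.20, limma adjusted p = 0.0069). The labels do not say whether the replicate numbers pair the samples. Deviations from the group means of same-numbered arrays correlated at 0.03, -0.09 and -0.25, and no array correlated best with its own number. With 3 arrays in each group these correlations cannot decide whether the numbers mark pairs. With the number as a block the difference stayed 2.36 (limma adjusted p = 0.079) and limma called 0 member probes and 0 probes overall (5 and 1236 at an unadjusted p under 0.05). Member probes called, 4 as reported, were 2 with detection required on all 6 arrays, and 1 gene with either the brightest probe or the mean of probes of each gene (fewer features of the same gene by construction), and 0 to 4 with 1 array left out. They were 5, with Lmna probe 5 added, without background correction, under median scaling, from the authors' log2 values and with a trended robust prior, and 3 without the filter on dim probes or with unnamed probes included, where probe 2 was lost. The overall count, 31 as reported, was 155 without background correction, 62 with median scaling, 112 from the authors' log2 values, 9 without the filter on dim probes, 59 with detection on all 6 arrays, 10 with unnamed probes included, 191 with a trended robust prior, and 1 to 17 with 1 array left out; the cause was not tested.

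Among the probes outside Lmna, none called as reported or under any alternative, the sign of small differences turned: Emd probe 2 to -0.10 under median scaling and -0.028 in the authors' log2 values. With 1 array left out the ranges were -0.083 to 0.17 for Emd probe 2, -0.021 to 0.42 for Lmnb1 probe 1, -0.32 to 0.069 for Lmnb2 probe 1, -0.11 to 0.028 for Sun1 probe 1, -0.26 to 0.086 for Syne1, -0.16 to 0.24 for Syne2, and -0.22 to 0.080, -0.46 to 0.055 and -0.57 to 0.042 for Tmpo probes 1, 2 and 4. The mean of probes gave no values per probe. Signal near background limits the wild type Lmna level and the nesprin probes.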

Other observations

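On 6 probes of 4 genes wild type replicate 1 lay more than 3 log2 units from each of the other 5 arrays. The largest log2 difference between the group means over all probes tested, 2.84, was that of the brighter Erdr1 probe. It came from wild type replicate 1, since the groups overlapped on the other 5 arrays. Erdr1, a gene of the pseudoautosomal region of the sex chromosomes, read 12.62 to 13.34 on its brighter probe on those 5 arrays and 4.73, undetected, on wild type replicate 1, and its second probe did likewise (9.62 to 10.42 against 4.79). Ptpn7, which encodes a lymphocyte tyrosine phosphatase, read 9.70 to 10.07 against 4.56, and Rdm1 read 9.61 to 10.06 against 5.25. Ctse, the cathepsin E gene, was higher in wild type replicate 1 on 2 probes (11.40 against 5.55 to 7.35, and 12.42 against 6.60 to 8.04). On a further Ctse probe, not among those 6, wild type replicate 1 was lower (9.43 against 11.75 to 12.22). All 4 Xist probes were detected on all 6 arrays, and none of the 8 probes of the Y-linked genes Eif2s3y, Kdm5d and Uty was detected on 3 or more. These genes were picked after their values were seen.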
